A study of Mus musculus with 6 samples.

Results

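The Wnt ligands and their receptors were read in skeletal stem cells of the mouse Achilles tendon-to-bone interface, the graded tissue that anchors the tendon in the heel bone. Members were the genes of the deposited table whose symbols name a Wnt ligand (19), a Frizzled receptor (10), the LDL receptor family co-receptors Lrp5 and Lrp6, or the receptor tyrosine kinases Ror1 and Ror2. That gives 33 genes of 26130 in the table, matched by symbol. This set was chosen with earlier results of these data known. The cells were sorted from C57BL/6 mice 7 days after injury, with no transgene or further treatment named in the labels, and neither the age of the mice nor the sort markers are given in the sources used here. The groups were sham control (n = 2), injured, meaning a partial injury of the interface (n = 3), and uninjured (n = 1), whose description field calls it a sham. The sources used here do not say if each library is its own animal or a pool of several, so every p-value reflects library-to-library spread, part of which may be technical.

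Wnt proteins are secreted, lipid-modified ligands that bind Frizzled receptors, which span the membrane and carry a cysteine-rich domain outside the cell. With Lrp5 or Lrp6 a Frizzled receptor stabilises beta-catenin, which enters the nucleus and acts with Tcf/Lef factors, whereas Ror receptors and some Frizzled receptors pass Wnt5a-type signals to the cytoskeleton and cell polarity without beta-catenin. In bone and cartilage beta-catenin signalling favours osteoblasts over chondrocytes, and Wnt5a and Wnt5b regulate growth plate chondrocytes.

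Total counts ran from 37506188 to 51089267 a library, and the 33 members together took 0.0354% to 0.0618% of them. Levels are given as CPM, counts scaled to a library of 1000000 after adjusting each library size by the trimmed mean of M-values, a factor for differences in composition. In these bulk samples, fewer cells of a type and less RNA per cell cannot be told apart. Marker RNA of other cell types varied widely between libraries of one group. Of 8 macrophage markers the summed level was 2750.0 CPM in sham 1 and 17.1 in sham 2, then 136 uninjured, and 4491, 1144 and 23.9 in injured 1, 2 and 3. The 8 neutrophil markers summed to 9579 CPM in sham 1 and 6145 in injured 1, against 4.28 to 783 elsewhere. The 8 endothelial markers summed to 1380.2 CPM in sham 1, 0.746 in sham 2, 624 uninjured, and 66.3 to 293 in the injured libraries. Of the surface genes on which mouse skeletal stem cells are sorted, Itgav and Cd200 had counts in every library, and the 10 mesenchyme and enthesis genes, among them Col1a1, Scx and Sox9, were all detected in each. The 5 genes that published sorts of this cell select against summed to 297 CPM in sham 1, 0.663 in sham 2, 97.6 uninjured, and 121, 54.5 and 18.2 in injured 1, 2 and 3. They peaked in different libraries. The endothelial gene Tek was highest uninjured, at 61.7 CPM, Eng in sham 1, at 201 CPM, and the leukocyte gene Ptprc in injured 1, at 24.8 CPM.

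Which members were present was asked first, before any comparison. Every library held a small set of ligands and a broad set of Frizzled receptors. Between 8 and 13 of the 19 ligands had at least 1 count in a library, against 9 or 10 of the 10 Frizzled receptors. Wnt3, Wnt3a, Wnt8a and Wnt8b, ligands best known for signalling through beta-catenin in the embryo, had no count in any of the 6 libraries. Wnt7a had 2 counts, both in injured 1, and Wnt9b had 3, all in sham 1. These 6 were not tested against sham control, and the remaining 27 members passed the low-count filter, some of them only through the libraries in which they were high.

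To compare levels between genes, CPM was divided by the length of each gene's merged exons in kilobases. On that scale Wnt11, Wnt5b and Wnt9a together made up most of the ligand signal in each library. Wnt11, a ligand of convergent extension that mostly acts outside the beta-catenin route, took 43.4% and 31.8% of the ligand CPM per kb in sham 1 and 2, 39.3% uninjured, and 28.6%, 31.9% and 12.3% in injured 1, 2 and 3. Wnt9a, a ligand of joint-forming tissue, took 32.5%, 20.3%, 42.1%, 23.4%, 18.9% and 14.8% in the same order. Both shares were thus lowest in injured 3. Wnt5b took 7.74%, 26.9%, 11.6%, 32.4%, 16.8% and 50.6% in that order, and led the ligands in injured 1 and injured 3.

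Among Frizzled receptors Fzd9, which osteoblasts need for normal bone formation in mice, ranked first in 5 of 6 libraries, with 23.6% to 54.3% of the Frizzled CPM per kb. Fzd1 took 20.0% to 33.4% and ranked first in injured 2. Fzd4, the receptor of the ligand norrin in vessels, took 10.4%, 3.81% and 5.40% in sham 1, sham 2 and uninjured cells, and 0.595%, 0.830% and 0.646% in injured 1, 2 and 3. Its share of the receptor signal was thus below 1% in the 3 injured libraries alone, a comparison within each library that does not depend on scaling between libraries. The summed Frizzled level was 50.9 and 54.6 CPM per kb in sham, 76.8 uninjured, and 79.8, 58.9 and 103 in injured 1, 2 and 3.

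**Figure D1:**
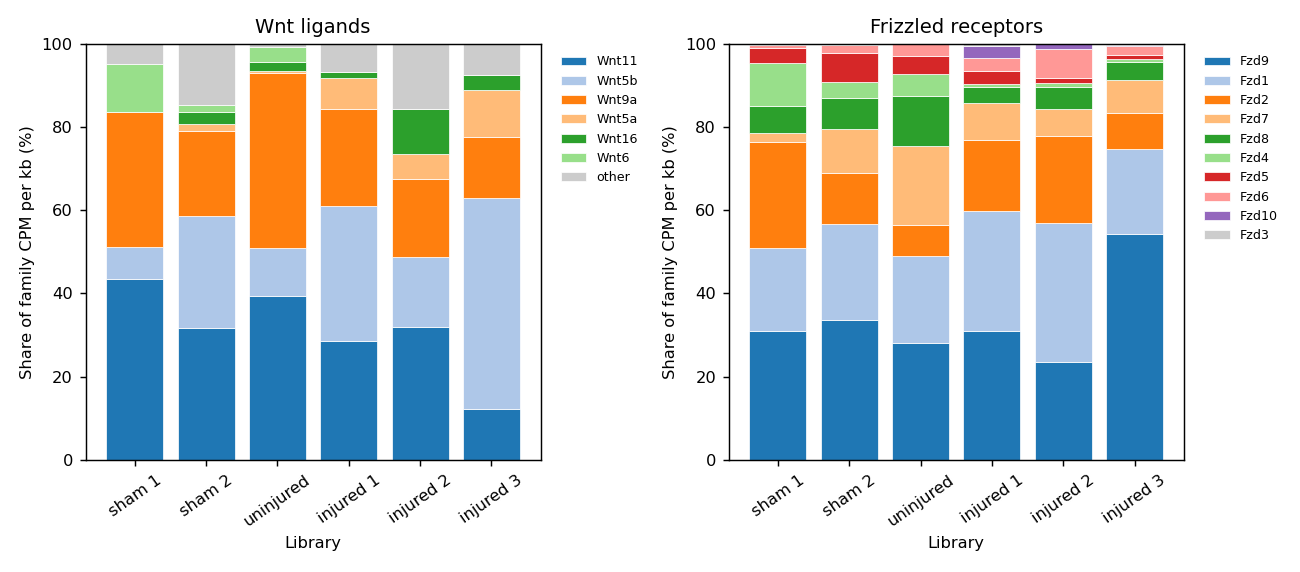
Stacked bars give each gene's share, in percent, of the summed CPM per kb of its family in each of the 6 libraries, for Wnt ligands (left, the 6 with the highest mean named) and Frizzled receptors (right). Wnt11, Wnt5b and Wnt9a fill most of each ligand bar, and the Fzd4 segment is below 1% in injured 1, 2 and 3.

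The main comparison set injured against sham control cells, to ask how the Wnt system of stem cells differs after a partial injury. Fzd4 and the ligand Wnt6 were lower in every injured library than in both sham libraries, and Fzd10 had counts in the injured libraries and none in sham control. Fzd1 was 1.86-fold higher on the ratio of group means. None of these passed edgeR's quasi-likelihood test after Benjamini-Hochberg adjustment over 16752 genes (smallest adjusted p among members 0.865), and no other gene of the table did (smallest 0.103). Of the 27 members tested, 4 had an unadjusted p under 0.05 by edgeR, Fzd1 and Fzd10 higher and Fzd4 and Wnt6 lower, where the background over all genes was 4.64% (2.44% higher, 2.20% lower). DESeq2 called Fzd4, Wnt6 and Fzd10 at adjusted p of 0.00666, 0.00909 and 0.0402, where the background was 2.20% of genes (1.43% higher, 0.770% lower). Fzd10 passed the low-count filter only through injured libraries and Wnt6 only through non-injured ones. The edgeR and DESeq2 results of Fzd10 and Wnt6 are therefore not independent of the filter. By limma-voom none of the members was called, against 0.00597% of genes. The count of 4 became 1 without sham 1 (Fzd10), 1 without injured 2 (Fzd4) and 6 without sham 2 (Fzd7, Wnt5a, Fzd6 and Wnt16 higher, Wnt6 and Fzd4 lower).

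In all, 7 of the 27 tested members had injured values wholly to one side of both sham values, namely Wnt5a, Fzd1, Fzd6 and Fzd10 above, and Wnt6, Fzd4 and Lrp5 below. Over all genes tested 21.0% did so (11.9% above, 9.12% below), so the members' share was near the background. Among the 7, Fzd10 passed the low-count filter only through injured libraries and Wnt6 only through non-injured ones. Their lack of overlap is not independent of the filter either. The median log2 fold change of the members tested was -0.05, beside 0.09 over all genes tested, and 13 of the 27 were above 0, beside 53.7% of all genes. Leaving out 1 library moved the members' median to 1.06 without sham 2 (0.30 over all genes) and to -0.26 without injured 3.

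Fzd4 stood at 35.4 and 14.0 CPM in sham 1 and 2, 27.9 CPM uninjured, and 3.19, 3.29 and 4.48 CPM in injured 1, 2 and 3. The injured values lay close together, all below the lowest non-injured value. The group means of 3.65 ± 0.715 (SD, n = 3) in injured and 24.7 ± 15.2 CPM (SD, n = 2) in sham control differed by -2.76 ± 0.72 log2 units (SE; edgeR unadjusted p = 0.00663, adjusted p = 0.865). Fzd4 is strongly made by endothelial cells, whose markers were high in sham 1. In sham 2, where 2 of 8 endothelial markers had counts and they summed to 0.746 CPM, Fzd4 stood at 14.0 CPM, and in the injured libraries, where all 8 were detected and summed to 66.3 to 293 CPM, it stood at 3.19 to 4.48 CPM. The part of endothelial RNA in the Fzd4 difference was not tested. Without sham 1 the difference was -1.94 log2 units (edgeR unadjusted p = 0.0571), and without both sham 1 and injured 1, the libraries richest in blood transcripts, it was -1.85 (edgeR unadjusted p = 0.0284).

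Fzd10 is a receptor of the Fzd4 and Fzd9 sequence group that is nearly silent in most adult tissues. It had 343, 144 and 20 counts in injured 1, 2 and 3 (7.76, 2.38 and 0.428 CPM) and none in sham 1, sham 2 or the uninjured library. Its mean of 3.52 ± 3.80 CPM (SD, n = 3) was at least 86.0-fold above sham control, taking a floor of 3 counts over both sham libraries, which covers counting error only (edgeR unadjusted p = 0.0240, adjusted p = 0.865). The injured libraries differed widely, in the same order as their macrophage sums. Their neutrophil sums (6145, 548 and 4.28 CPM in injured 1, 2 and 3) fell in that order too. So did their erythroid and endothelial sums, the sums of the genes selected against, and the share of ribosomal RNA. In sham 1 the macrophage sum was 2750.0 CPM without any Fzd10 count. The part of any of these in the Fzd10 level was not tested. Injured 1 holds 343 of the 507 counts, and without it the injured mean was 1.40 CPM, at least 34.2-fold above sham control by the same floor (edgeR unadjusted p = 0.0746). Of 14 alternatives Fzd10 had an unadjusted p under 0.05 in 9.

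The ligand Wnt6, known from epithelia and somites, stood at 7.97 and 1.46 CPM in sham 1 and 2 and 2.48 CPM in the uninjured library. In the injured libraries it had 0, 0 and 2 counts. Counts of 348 in sham control and 2 in injured give a 360-fold ratio per scaled library size, with an exact 95% interval of 98.9 to 2984 for counting error only (edgeR unadjusted p = 0.0174, adjusted p = 0.865). Its highest value fell in sham 1, where the 7 Schwann cell markers summed to 3469 CPM against 45.8 to 297 elsewhere and the 6 epithelial markers to 28.2 CPM against 0.116 to 5.52 elsewhere. The 6 erythroid markers summed to 38765 CPM in sham 1 against 1.19 to 6077 elsewhere. Neutrophil, endothelial and smooth muscle sums were highest in sham 1 as well. The part of such RNA in the Wnt6 level was not tested. Sham 1 holds 295 of the 348 sham counts, and without it the ratio was 111-fold (exact 95% interval 29.2 to 939; edgeR unadjusted p = 0.0665). The fitted log2 fold change ran from -10.72 to -6.45 when 1 library was left out, and 10 of 14 alternatives kept an unadjusted p under 0.05.

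**Figure D2:**
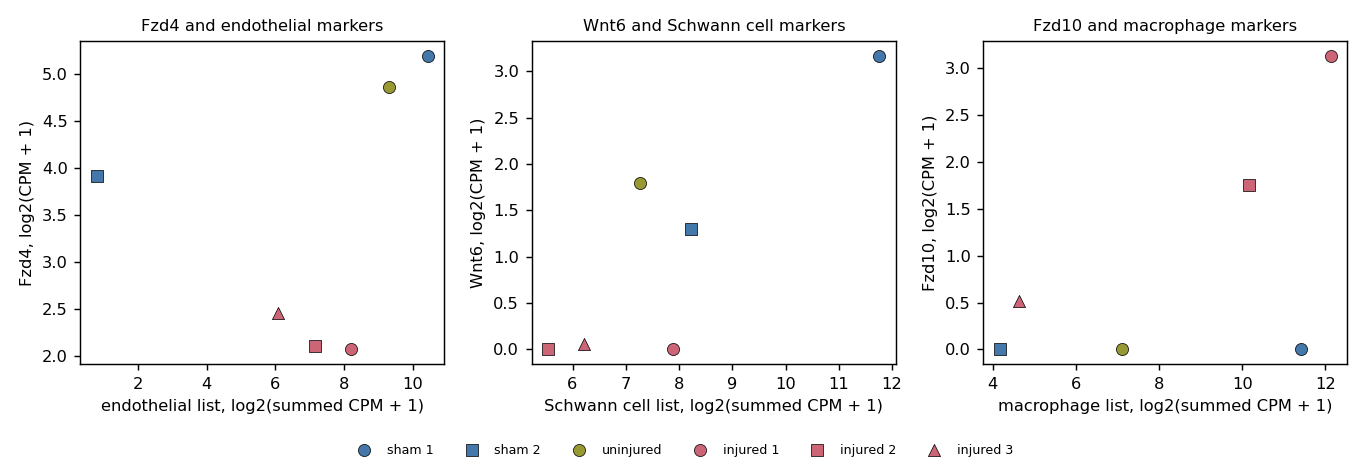
Each point is a library, with a member's level as log2(CPM + 1) on the vertical axis and the summed level of a marker list as log2(summed CPM + 1) on the horizontal axis, for Fzd4 with endothelial, Wnt6 with Schwann cell and Fzd10 with macrophage markers. Sham 2 has Fzd4 at 14.0 CPM with an endothelial sum of 0.746 CPM, and sham 1 has no Fzd10 count with a macrophage sum of 2750.0 CPM.

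The promoters of these 3 genes are shown beside that of Wnt11, the leading ligand in sham control. The differences above are of RNA counts over whole genes, and no promoter activity was measured. Each runs 5′ to 3′ on the gene's own strand from 250 bases before to 50 bases after the annotated start (RefSeq, GRCm38.p6), and capitals mark the Tcf/Lef core motif CTTTGAT or CTTTGAA on either strand. The windows are chr7:89404116-89404415 (plus strand) for Fzd4, chr5:128600856-128601155 (plus) for Fzd10, chr1:74771642-74771941 (plus) for Wnt6 and chr7:98834862-98835161 (plus) for 1 of the 2 Wnt11 starts.
Fzd4: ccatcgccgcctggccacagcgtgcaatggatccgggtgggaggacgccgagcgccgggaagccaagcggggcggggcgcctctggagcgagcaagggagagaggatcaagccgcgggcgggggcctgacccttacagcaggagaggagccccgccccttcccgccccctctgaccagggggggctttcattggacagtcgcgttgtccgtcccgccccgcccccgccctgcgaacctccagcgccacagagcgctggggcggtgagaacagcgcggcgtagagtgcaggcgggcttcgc
Fzd10: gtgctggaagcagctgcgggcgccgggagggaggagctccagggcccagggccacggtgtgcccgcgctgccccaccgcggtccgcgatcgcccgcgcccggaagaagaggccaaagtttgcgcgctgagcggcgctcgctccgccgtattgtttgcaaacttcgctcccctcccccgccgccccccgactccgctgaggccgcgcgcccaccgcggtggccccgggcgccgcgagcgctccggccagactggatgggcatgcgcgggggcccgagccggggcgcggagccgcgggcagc
Wnt6: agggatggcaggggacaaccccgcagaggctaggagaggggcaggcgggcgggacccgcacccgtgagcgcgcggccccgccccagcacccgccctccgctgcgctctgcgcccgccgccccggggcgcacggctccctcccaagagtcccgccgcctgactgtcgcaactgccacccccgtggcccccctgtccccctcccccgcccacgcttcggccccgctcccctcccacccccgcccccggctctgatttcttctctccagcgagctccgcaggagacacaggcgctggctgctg
Wnt11: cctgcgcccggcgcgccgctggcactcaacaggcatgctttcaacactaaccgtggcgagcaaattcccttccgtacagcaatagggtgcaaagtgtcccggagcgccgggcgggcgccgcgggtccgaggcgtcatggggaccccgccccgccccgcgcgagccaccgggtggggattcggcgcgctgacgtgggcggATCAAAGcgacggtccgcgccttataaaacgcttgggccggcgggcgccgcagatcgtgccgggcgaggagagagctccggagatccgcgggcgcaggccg
All 4 windows are rich in G and C, at 72.7%, 77.7%, 76.7% and 71.3% in that order. The motif was found in 2 of 26 promoters of the 23 members that matched the table, and in 8.65% of all 32851 promoters of the same length. These were 1 of 2 promoters of Wnt11 (the one shown, starting 51 bases before the start) and 1 of 3 promoters of Wnt5b. The motif was not in the Fzd4, Fzd10 and Wnt6 windows, which says nothing of binding elsewhere.

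The other ligands are described by role. Wnt5a, the prototype ligand of the beta-catenin-independent route, stood at 0 and 5.36 CPM in sham 1 and 2, 1.29 CPM uninjured, and 26.3, 8.72 and 31.5 CPM in injured 1, 2 and 3. Every injured library lay above every other library. The means of 22.2 ± 11.9 (SD, n = 3) and 2.68 ± 3.79 CPM (SD, n = 2) differed by 3.05 ± 2.00 log2 units (SE; edgeR unadjusted p = 0.173). This large difference did not reach an unadjusted p under 0.05. The fitted value ranged from 1.91 to 12.99 over the alternatives, the highest without sham 2, which leaves the sham group with no Wnt5a count.

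Wnt5b, its close paralogue, stood at 6.89 and 30.6 CPM in sham, 10.2 CPM uninjured, and 43.7, 9.26 and 54.3 CPM in injured 1, 2 and 3. The groups overlapped, because injured 2 lay below sham 2 (log2 fold change 0.93 ± 0.94, SE; edgeR unadjusted p = 0.356). Wnt11 stood at 52.7 and 49.2 CPM in sham, 47.1 CPM uninjured and 52.6, 23.9 and 18.0 CPM in injured 1, 2 and 3, so injured 1 was at the control level and the others at less than 25 CPM (-0.69 ± 0.56; edgeR unadjusted p = 0.253). Wnt4, a ligand of kidney and reproductive tract development, had 5.44 CPM in sham 2, 3.21 in injured 1, 4.48 in injured 3 and at most 0.0730 elsewhere, with no order by group.

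Wnt9a stood at 36.3 and 29.0 CPM in sham, 46.5 CPM uninjured and 39.7, 13.1 and 19.9 CPM in injured 1, 2 and 3, and the groups overlapped (-0.43 ± 0.59; edgeR unadjusted p = 0.487). Wnt16, a ligand that protects cortical bone and articular cartilage in mice, stood at 0 and 5.25 CPM in sham, 2.95 CPM uninjured and 3.67, 9.69 and 6.34 CPM in injured 1, 2 and 3 (1.32 ± 2.15; edgeR unadjusted p = 0.559), and the fitted value was 11.24 without sham 2, which leaves the sham group with no count. Among ligands best known through beta-catenin, none had counts in all 6 libraries and several were held by a few. Wnt1 stood at 3.05 CPM in sham 1, 6.13 in injured 1 and at most 0.0214 elsewhere, and those libraries were the richest in neutrophil RNA. Its part in the Wnt1 value was not tested.

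Wnt2, a ligand of lung and placenta, had counts in sham 2 (3.23 CPM) and injured 3 (1.88 CPM) alone, the libraries with the lowest macrophage and neutrophil sums, whose part in this was not tested. Wnt7b, a ligand that promotes bone formation in mice, stood at 10.4 CPM in sham 2 and 2.29 CPM in injured 3, and at most 0.0679 CPM elsewhere. Both genes thus separated libraries within the groups rather than the groups. Wnt10a, a ligand of tooth and skin appendages, stood at 6.04 CPM in injured 2 and at most 0.784 elsewhere. Wnt10b, which favours osteoblasts over adipocytes, stood at 2.49 CPM in both sham 2 and injured 2 and at most 0.921 elsewhere, and Wnt2b reached 1.46 CPM in sham 2. For these 5 the SE of the log2 fold change was at least 2.89, so a difference of several log2 units would not be detectable with these libraries.

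**Figure D3:**
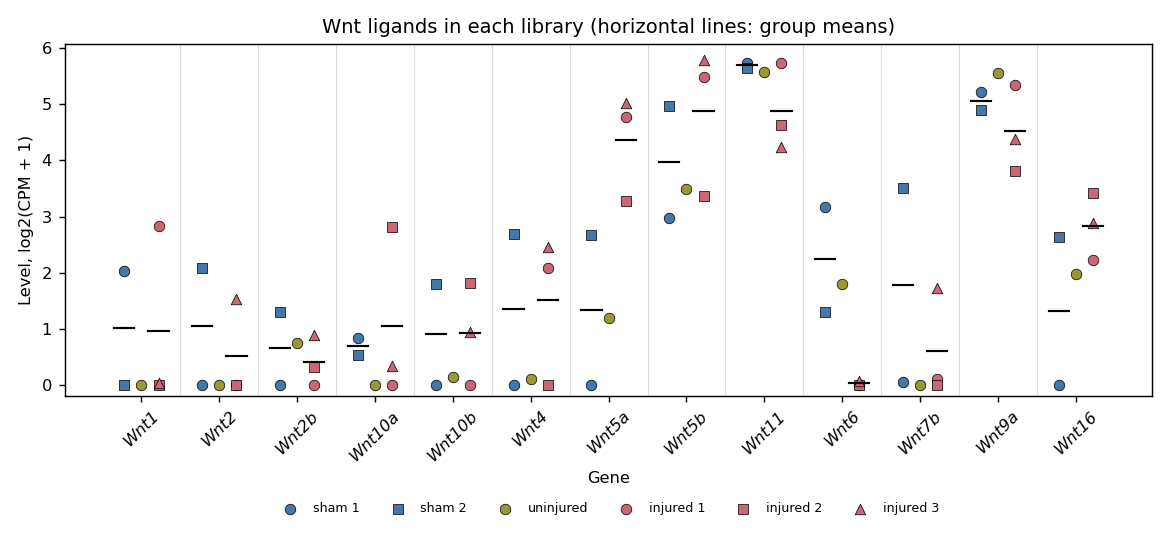
Each point is 1 library's level of a Wnt ligand as log2(CPM + 1), by group and replicate, and horizontal lines are the means of the sham control (n = 2) and injured (n = 3) groups on that scale. The 13 ligands that passed the low-count filter are shown; Wnt5a is above every other library in injured 1, 2 and 3, and Wnt6 is at or near 0 there.

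Of the Frizzled receptors, the group of Fzd1, Fzd2 and Fzd7, close relatives that carry beta-catenin signals in many tissues, had fitted fold changes above 0 for all 3, although that of Fzd2 was -0.15 without sham 2. Fzd1 stood at 42.7 and 52.9 CPM in sham, 67.8 CPM uninjured and 97.0, 82.5 and 87.9 CPM in injured 1, 2 and 3, with no overlap (0.90 ± 0.37, SE; edgeR unadjusted p = 0.0456, adjusted p = 0.865). Of 14 alternatives, 4 kept the unadjusted p of Fzd1 under 0.05, and it was lost whenever a sham or injured library was left out. Fzd2 stood at 47.4 and 24.8 CPM in sham, 20.7 CPM uninjured and 49.7, 45.4 and 32.8 CPM in injured 1, 2 and 3. Its fold change against sham control was within its error (0.24 ± 0.49; edgeR unadjusted p = 0.636). Fzd7 was highest in the uninjured library at 66.6 CPM, with 5.05 and 25.7 in sham and 32.0, 16.9 and 37.0 CPM in injured 1, 2 and 3 (0.90 ± 0.77; edgeR unadjusted p = 0.284), and its value was 2.50 without sham 2 and 0.16 without sham 1.

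Fzd6, which sets hair follicle polarity in mice, stood at 1.73 and 4.75 CPM in sham, 9.45 CPM uninjured and 11.2, 17.7 and 9.9996 CPM in injured 1, 2 and 3. The injured libraries lay above the sham libraries, with the uninjured one just below injured 3 (2.00 ± 1.00; edgeR unadjusted p = 0.0854). Its relative Fzd3, a guidance receptor of axons, stood at 1.57 and 1.68 CPM in sham, 0.0243 uninjured and 4.37, 0.628 and 4.54 CPM in injured 1, 2 and 3 (0.97 ± 1.78; edgeR unadjusted p = 0.605).

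Fzd5 and Fzd8, a pair of close relatives, had fold changes below 0, with wide errors. Fzd5 stood at 12.5 and 26.0 CPM in sham, 22.8 CPM uninjured and 16.9, 5.15 and 7.07 CPM in injured 1, 2 and 3 (-0.99 ± 0.79; edgeR unadjusted p = 0.252). Fzd8 stood at 19.9 and 24.9 CPM in sham, 55.0 CPM uninjured and 18.9, 19.1 and 27.2 CPM in injured 1, 2 and 3 (-0.05 ± 0.48; edgeR unadjusted p = 0.922), and the sign of this value turned with library size alone as the scaling (0.10). Fzd9 stood at 36.1 and 42.1 CPM in sham, 49.4 CPM uninjured and 56.6, 31.8 and 128 CPM in injured 1, 2 and 3, so injured 3 stood apart and injured 2 lay below both sham libraries (0.88 ± 0.63; edgeR unadjusted p = 0.206).

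The co-receptor Lrp5, whose loss lowers bone mass, stood at 13.7 and 12.3 CPM in sham, 15.0 CPM uninjured and 1.52, 7.15 and 10.7 CPM in injured 1, 2 and 3. The injured libraries lay below the others but spread widely (-1.01 ± 1.00; edgeR unadjusted p = 0.347). Lrp6 stood at 14.8 and 47.8 CPM in sham, 91.5 CPM uninjured and 8.62, 39.4 and 51.6 CPM in injured 1, 2 and 3. It was low in sham 1 and injured 1 within their groups, and its fold change of 0.08 ± 0.83 turned sign in several alternatives. The Wnt5a receptor Ror2, needed for cartilage growth, stood at 19.1 and 33.9 CPM in sham, 9.93 CPM uninjured and 12.7, 17.4 and 38.3 CPM in injured 1, 2 and 3 (-0.22 ± 0.67; edgeR unadjusted p = 0.759). Ror1 ranged from 5.28 to 16.7 CPM, its highest value in the uninjured library (-0.09 ± 0.87; edgeR unadjusted p = 0.923).

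**Figure D4:**
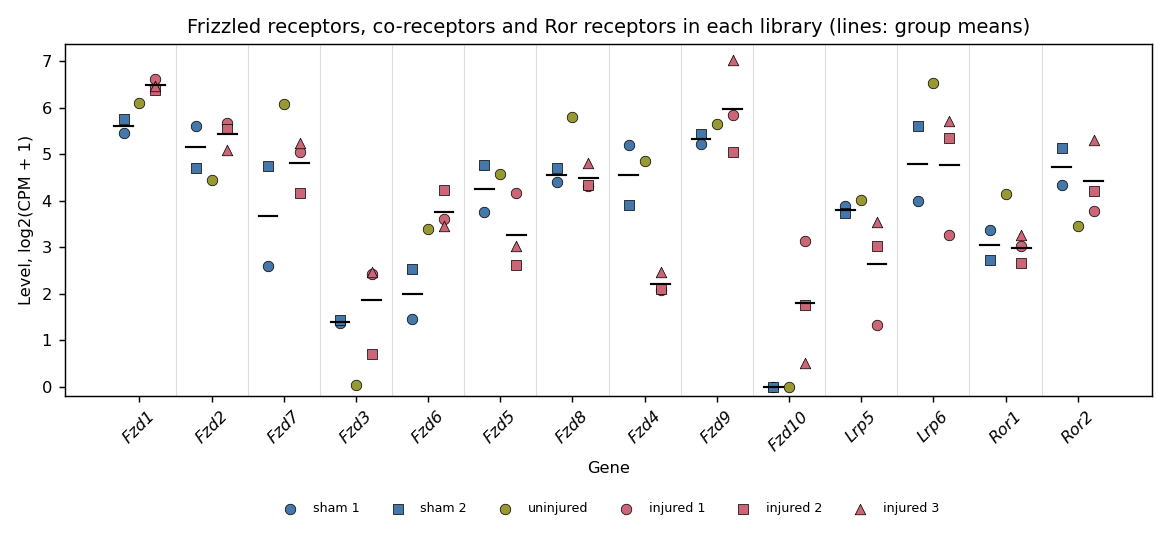
Each point is 1 library's level of a receptor as log2(CPM + 1), by group and replicate, and horizontal lines are the means of the sham control (n = 2) and injured (n = 3) groups on that scale. Fzd4 is lower in injured 1, 2 and 3 than in every other library, and Fzd10 is at 0 outside the injured group.

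Next, injured cells were set against sham and uninjured cells pooled as 3 controls, a contrast that reuses the injured and sham libraries of the first. Of 24 members tested, 3 had an unadjusted p under 0.05 by edgeR, Fzd10 higher and Fzd4 and Wnt6 lower, against a background of 7.43% (3.71% higher, 3.72% lower), and the smallest adjusted p among them was 0.435. Fzd4 stood at 3.65 ± 0.715 against 25.8 ± 10.9 CPM (SD, n = 3 each), a log2 fold change of -2.82 ± 0.62 (SE; edgeR unadjusted p = 0.00234, adjusted p = 0.435). Fzd10 was at least 134-fold above the joined controls by a floor of 3 counts over the 3 libraries, and at least 53.5-fold without injured 1 (edgeR unadjusted p = 0.00844, adjusted p = 0.452). For Wnt6, 450 against 2 counts gave a 298-fold ratio with an exact 95% interval of 82.1 to 2469, and 152-fold without sham 1 (edgeR unadjusted p = 0.00875, adjusted p = 0.452). The count of 3 became 6 without injured 1, with Fzd5, Wnt9a and Wnt11 joining as lower.

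DESeq2 called Fzd4, Wnt6 and Fzd10 here at adjusted p of 0.00057, 0.00377 and 0.00824, against 2.49% of genes (1.01% higher, 1.48% lower), and limma-voom called 0.0496% of genes and no member. The members' median log2 fold change was 0.26, with 13 of 24 above 0, where 50.1% of genes were. The injured values lay wholly above the joined controls for Wnt5a, Fzd1, Fzd6 and Fzd10 and wholly below for Wnt6, Fzd4 and Lrp5, 7 of 24 members tested against 16.3% of genes (9.23% above, 7.07% below). Fzd10 passed the low-count filter of this fit only through the injured libraries, and Wnt6 only through the controls. Neither the calls of Fzd10 and Wnt6 nor their lack of overlap are therefore independent of the filter. Wnt5a, with no count in sham 1, could not pass it through the controls alone. Its lack of overlap is not independent of the filter either. Wnt5a averaged 22.2 ± 11.9 in injured and 2.22 ± 2.80 CPM in pooled controls (SD, n = 3 each), with an edgeR unadjusted p of 0.0865. Fzd1 averaged 89.1 ± 7.34 and 54.5 ± 12.6 CPM (edgeR, 0.0541), Fzd6 averaged 12.95 ± 4.15 and 5.31 ± 3.89 CPM (edgeR, 0.177) and Lrp5 averaged 6.44 ± 4.61 and 13.7 ± 1.35 CPM (edgeR, 0.237). The uninjured library held the highest Fzd7, Fzd8, Lrp5, Lrp6, Ror1 and Wnt9a of all 6 libraries, and being a single library it gives no spread of its own.

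**Figure D5:**
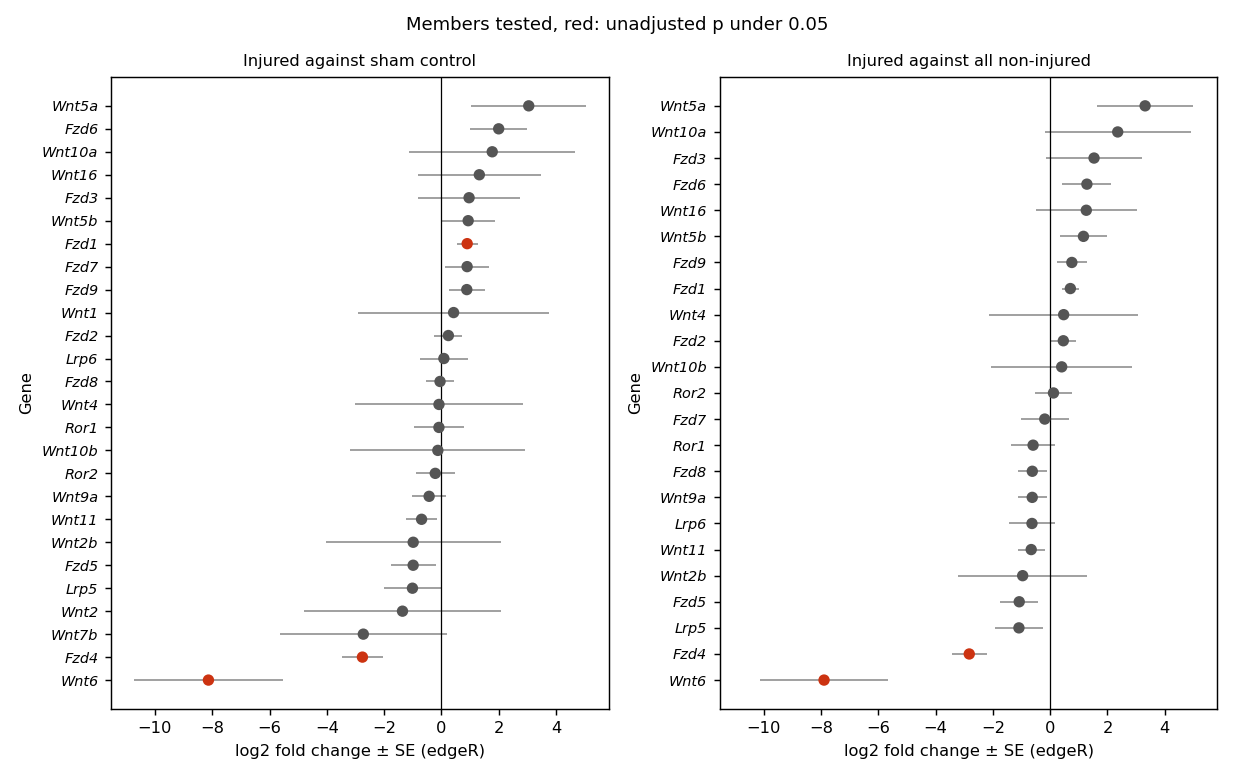
Points are log2 fold changes of the members tested, with bars of 1 SE by edgeR, for injured against sham control (left) and injured against all non-injured libraries (right); red marks an unadjusted p under 0.05. Fzd10, with no count in the controls, is left out, and the Wnt6 value rests on 2 counts in the injured group; Fzd4 lies at -2.76 and -2.82.

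The genes that act around these members were read from lists of the pathway. Their counts at an edgeR unadjusted p under 0.05 stand beside 2.44% of all genes higher and 2.20% lower against sham control. Against all non-injured libraries the shares of all genes were 3.71% and 3.72%. Wls and Porcn, which carry and lipidate Wnt ligands for secretion, had counts in every library, Wls at 177 ± 12.0 CPM in injured (SD, n = 3) and 180 ± 52.3 in sham control (SD, n = 2). Of 13 other Wnt receptors and planar polarity genes tested against sham control, 1 was higher at an unadjusted p under 0.05 by edgeR and 0 lower. That gene, the co-receptor Ptk7, stood at 23.0 and 32.8 CPM in sham, 33.3 uninjured and 51.3, 55.0 and 69.5 CPM in injured 1, 2 and 3, above every other library (1.07 ± 0.43; edgeR unadjusted p = 0.0432, adjusted p = 0.865). Celsr2, an atypical cadherin of planar polarity, stood at 0.198 ± 0.220 against 4.26 ± 1.47 CPM (SD; n = 3 and 2; edgeR unadjusted p = 0.0664). Of 7 R-spondin and receptor genes tested, 0 had an unadjusted p under 0.05 by edgeR against sham control. The R-spondin Rspo1, an enhancer of Wnt signals, stood at 0.268 ± 0.436 against 4.95 ± 4.16 CPM.

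Among 16 Dishevelled, destruction complex and beta-catenin genes 1 was higher at an unadjusted p under 0.05 by edgeR, Amer1, an Apc-binding scaffold, with 0.0270 and 0.138 CPM in sham and 10.9, 10.8 and 8.86 CPM in injured 1, 2 and 3. The uninjured library held 18.9 CPM of Amer1, so this gene separated the sham libraries from the rest and not injured from non-injured cells. Of 12 Tcf/Lef factors and co-activators, 0 had an unadjusted p under 0.05 by edgeR against sham control and 1 did against all non-injured libraries. That gene, Tcf7l2, stood at 32.4 and 37.3 CPM in sham, 75.1 uninjured and 16.5, 14.0 and 21.8 CPM in injured 1, 2 and 3 (-1.47 ± 0.46 against all non-injured; edgeR unadjusted p = 0.0143, adjusted p = 0.487). Its relative Tcf7l1 stood at 20.0 ± 3.34 CPM in injured and 34.8 ± 3.57 in non-injured libraries (SD, n = 3 each; edgeR unadjusted p = 0.0664).

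Of 18 Wnt target genes tested against sham control, 7 had a fold above 0, and 1 was lower at an unadjusted p under 0.05 by edgeR. This was Nkd2, a feedback inhibitor that binds Dishevelled, with 73.8 and 44.0 CPM in sham, 73.3 uninjured and 5.95, 16.4 and 25.1 CPM in injured 1, 2 and 3 (-1.90 ± 0.65; edgeR unadjusted p = 0.0228, adjusted p = 0.865). The target Axin2, often read as a gauge of beta-catenin activity, was low in every library, at 0.378 and 2.26 CPM in sham, 5.96 uninjured and 0.317, 0.743 and 0.771 CPM in injured 1, 2 and 3 (-1.11 ± 1.79; edgeR unadjusted p = 0.555). Myc stood at 82.7 ± 34.9 against 125 ± 11.9 CPM (SD; n = 3 and 2) and the groups overlapped. Of 13 secreted Wnt antagonists tested, 1 was higher and 3 lower at an unadjusted p under 0.05 by edgeR. Sfrp1, a decoy that binds Wnt ligands, stood at 157 ± 42.0 against 64.1 ± 12.1 CPM, and Wif1, which also binds them, at 72.6 ± 63.5 against 690 ± 657 CPM (SD; n = 3 and 2; edgeR unadjusted p = 0.0177 and 0.0137). The other lower antagonists were the related decoys Sfrp4, at 70.3 ± 19.5 against 301 ± 154 CPM, and Sfrp5, at 0.179 ± 0.290 against 24.0 ± 27.2 CPM (SD; n = 3 and 2; edgeR unadjusted p = 0.00334 and 0.0163). Sfrp5 stood at 43.2 and 4.72 CPM in sham and had no count in the uninjured library, so it did not separate injured from non-injured cells. No gene of these lists had an edgeR adjusted p under 0.05 in either comparison. Against sham control DESeq2 called Amer1, Sfrp4, Sfrp5, Wif1 and Sost (adjusted p = 1.09e-08, 0.00283, 0.0194, 0.0230 and 0.000503), and Sost, an inhibitor of Lrp5 and Lrp6, had counts in injured 2 alone. Against all non-injured libraries it called Sfrp4, Wif1, Sfrp1 and Nkd2 (adjusted p = 0.000148, 0.000737, 0.0357 and 0.0373). By edgeR at an unadjusted p under 0.05 against all non-injured libraries, 1 antagonist of 11 tested was higher (Sfrp1) and 3 were lower. The lower ones were Sfrp4, Wif1 and Dkk2, the last in place of Sfrp5. At that edgeR threshold 0 of 16 target genes were higher and 1 was lower. Of 11 other receptors and polarity genes 1 was higher (Ptk7) and 1 lower (Celsr2). It was passed by 0 of 7 R-spondin genes and 0 of 16 destruction complex genes.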

How the data were processed

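Sorted mouse skeletal stem cells gave 150 pg of RNA each for SMARTer cDNA, per the labels' protocols. The deposited table holds whole-number counts per gene symbol, used unscaled. The submitters' processing notes list Salmon 0.12.0, DESeq2 1.22.2, DESeq, GRCm38.p6 and mm9, with no role for either build. How estimates were rounded, which annotation served and whether strand was used is unstated in these sources, so reads of genes overlapping on the other strand (in GENCODE M21, at Wnt11, Wnt7b, Fzd5 and Fzd6) cannot be told apart. Reads carry no molecular identifiers, so intervals and floors cover counting error only.

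All 6 columns were fitted with edgeR 4.0.16 (R 4.3.3; TMM scaling, filterByExpr with a minimum count of 10, quasi-likelihood F test, Benjamini-Hochberg adjustment over all genes, threshold 0.05). The fit had 3 groups for injured against sham control (16752 genes, 3 residual degrees of freedom) and 2 for injured against all non-injured (14110 genes, 4). Standard errors come from the F statistic. The steps were tested on simulated data, where recovery of known changes was required only at a small, fixed spread. That test does not show recovery at the spread of these libraries. Alternatives used DESeq2 1.42.0, limma 3.58.1 (voom), other scalings, no filter, no ribosomal RNA or haemoglobin genes, fewer libraries and a replicate block. Lengths are merged exons of GENCODE M21 basic transcripts, and the length in the authors' counting is unknown. Every member was named. For each pathway list the genes named come from the 4 with the smallest p in either comparison. Exceptions are Dkk2 and Sost, named because they passed a threshold of edgeR (unadjusted) or DESeq2 (adjusted). Members and lists were chosen with earlier results of these data known.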

Additional observations from a re-analysis of the deposited data

How the results depend on the processing

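By edgeR's quasi-likelihood test with Benjamini-Hochberg adjustment no gene was called in either comparison. DESeq2 called 369 genes against sham control and 345 against all non-injured libraries, limma-voom called 1 and 7, and edgeR without the low-count filter called 3 and 5. Over all genes the median against sham control was 0.09 log2 units with the main scaling, 0.23 with library size alone and 0.02 with relative log expression. The 4 members with an unadjusted p under 0.05 against sham control became 0 with the replicate block and 1 to 6 when 1 library was left out. The 3 against all non-injured libraries became 3 to 6, and 5 without both sham 1 and injured 1, a setting chosen after seeing the data, like leaving out the uninjured library. The replicate numbers give only 2 pairs, and the deviations of same-numbered libraries correlated at 0.23 and 0.00 over 16752 genes, which is too few pairs to show whether the numbers pair the samples. Sham 1 and injured 1 also had the most ribosomal RNA, 13.1% and 12.4% of counts against 2.57% to 4.77% elsewhere. Fzd4, Wnt6, Fzd10, Fzd1 and Wnt5a kept their sign in every alternative run. So did Fzd3, Fzd5, Fzd6, Fzd9, Lrp5, Wnt5b, Wnt9a, Wnt11 and Wnt16, so a kept sign was not particular to the members named first. Signs turned for members with errors larger than their values, and the cause was not tested. Against sham control, library size alone gave Wnt10b 0.22, Wnt4 0.012, Fzd8 0.10 and Ror1 0.021 on the log2 scale. The limma-voom values were -0.82 for Wnt1, -1.18 for Wnt10a, 0.72 for Wnt10b and 0.70 for Wnt4. The replicate block gave -1.20 for Wnt10a, 0.020 for Wnt10b and -0.55 for Lrp6, and leaving out sham 1 with injured 1 gave -0.073 for Lrp6 and 0.29 for Ror1. Leaving out 1 library moved Lrp6 from -0.53 to 1.17, Ror1 from -0.40 to 0.31, Wnt1 from -6.87 to 9.55, Wnt2 from -9.12 to 7.86, Wnt2b from -2.51 to 7.09, Wnt10b from -1.37 to 8.71, Wnt4 from -1.09 to 9.88, Wnt7b from -7.19 to 4.73, Fzd2 from -0.15 to 0.78, Fzd8 from -0.26 to 0.12, Ror2 from -0.83 to 0.26 and Wnt10a from -2.21 to 2.36. Against all non-injured libraries, limma-voom gave Fzd7 0.32, the setting without sham 1 and injured 1 gave Wnt4 -0.30, and leaving out 1 library moved Wnt10b from -0.84 to 4.46, Wnt4 from -0.20 to 6.01, Wnt2b from -2.50 to 0.10, Wnt10a from -1.62 to 3.24, Fzd7 from -0.69 to 0.91, Ror2 from -0.50 to 0.65 and Lrp6 from -1.13 to 0.11. A setting that leaves 1 sham library assumes that it varies like the other groups.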
